A study of Danio rerio with 8 samples.

Results

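Zinc sulfate (ZnSO4) exposure was compared with no treatment in whole zebrafish larvae (Danio rerio) at 96 hours post fertilization (hpf). The comparison used 3 ZnSO4 arrays and 2 Control arrays, 5 of the 8 arrays of the series, chosen by their labels alone. The ZnSO4 larvae were kept in culture water with 7.75 mg/L ZnSO4, named LC25 in the labels, and the Control larvae in culture water with no added zinc. The other 3 arrays carried RNA of larvae exposed to ZnO NPs (zinc oxide nanoparticles) at 2.64 mg/L. They entered the estimate of the spread and are given beside the ZnSO4 values where useful. The labels name no strain or genotype for any group. In all 3 groups, larvae that had shared a vessel were anesthetized with tricaine and pooled whole for RNA extraction, so each array is a mixture of all tissues of the pooled animals. The labels give no more than a replicate number, and p-values therefore measure only the spread between these samples. An exposed and an unexposed pool can differ through fewer cells of a type or through less RNA per cell, and these cannot be told apart.

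Zinc enters cells through transporters of the slc39 (ZIP) family and leaves the cytosol through those of the slc30 (ZnT) family. Inside the cell it is bound by metallothioneins, small cysteine-rich proteins, whose genes are switched on by the zinc-sensing transcription factor Mtf1. In fish larvae, waterborne zinc meets the skin and gill ionocytes first, which take up calcium and other ions from the water, and zinc is known to compete with calcium at this uptake. Zinc is also abundant in the retina and is part of many enzymes, among them carbonic anhydrases and the metalloproteases that dissolve the egg envelope at hatching.

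Signals are given as normalized signal, that is, the background-subtracted signal of a probe after the arrays were brought to the same 75th percentile (1160). A log2 fold change (FC) is the mean of the 3 ZnSO4 arrays minus the mean of the 2 Control arrays. Of 43603 zebrafish probes, 34356 (78.8%) exceeded background clearly on all Control arrays or on all ZnSO4 arrays and were tested with limma. Of all probes, 77.5% and 84.5% did so on the single Control arrays and 79.4% to 80.3% on the single ZnSO4 arrays. The Control arrays were less alike than the ZnSO4 arrays. Between them, 2710 tested probes (7.89%) lay at least 1.5-fold apart, against 940 to 1138 (2.74% to 3.31%) between any pair of ZnSO4 arrays. The barcode in the scanner header of each array ends in a position number, which is read here as the side of the slide. By this reading both Control arrays lay on the same side and all ZnSO4 arrays on the other. The side and the treatment therefore cannot be told apart from these 5 arrays alone. The ZnO NP arrays lay on both sides, replicates 1 and 2 with Control and replicate 3 with ZnSO4. This allowed a fit blocked on slide side. Its side difference is that of replicate 3 from replicates 1 and 2, so the values of this fit rest on that 1 array. Of 45 marker genes of 14 tissues and cell types, 39 were on the array under their present symbols and 38 of these were above background. The summed markers of adult ovary stayed at 31.5 to 41.6 over the 5 arrays. Summed markers of exocrine pancreas read 65377 and 176958 on the Control arrays and 106919 to 127452 on the ZnSO4 arrays, so the Control arrays enclosed the exposed ones.

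Few probes differed between ZnSO4 and Control once the number of probes was taken into account, and many more did so at a looser rule. At a 1.5-fold change or more and an adjusted p (Benjamini-Hochberg, limma) under 0.05, 5 probes (0.0146% of those tested) were higher and 4 (0.0116%) were lower in ZnSO4. With the same fold change and an unadjusted p under 0.05, 472 (1.37%) were higher and 345 (1.00%) were lower, which is referred to below as the unadjusted rule. Without regard to fold change, the unadjusted p was under 0.05 for 6352 probes (18.5%). For 6838 probes (19.9%) every ZnSO4 array was above both Control arrays, and for 6681 (19.4%) every one was below. The median log2 FC of all tested probes was 0.02 and the median standard error (SE) was 0.11. At the unadjusted rule 57.8% of the differing probes were higher, but quantile normalization gave 301 higher and 461 lower (39.5% higher) and scaling by the array median gave 356 and 467 (43.3%). Normexp background correction with an offset of 50, followed by quantile normalization, gave 128 and 162 (44.1%). This setting is called normexp background correction below. The number of called probes depended on the Control arrays. Without Control replicate 2, 590 probes were called higher and 341 lower, and without Control replicate 1 there were 26 and 45, with the spread of the lone Control array taken from the other groups.

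**Figure D1:**
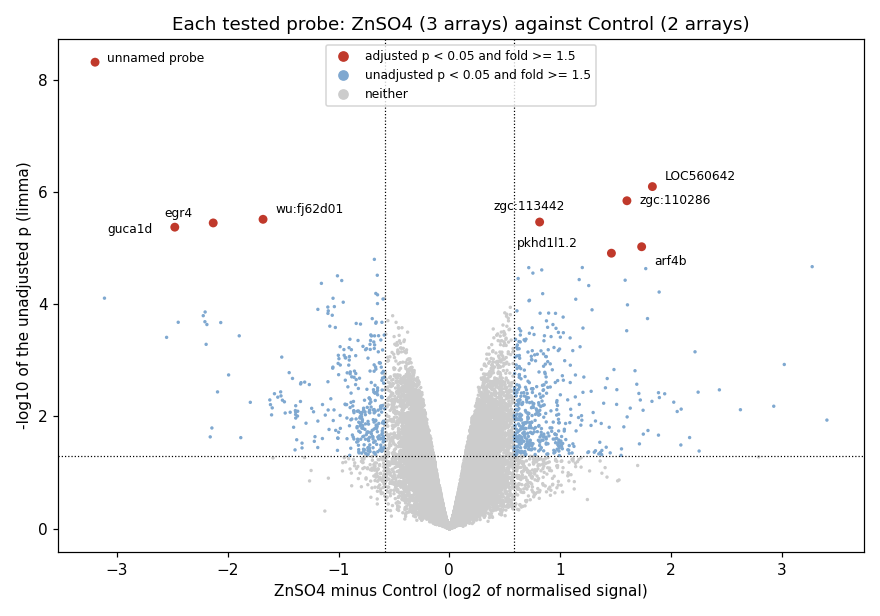
Each point is a tested probe, with the log2 FC of ZnSO4 against Control on the x axis and the negative log10 of the unadjusted limma p on the y axis. The 9 called probes are in red with their symbols, the further probes that met the unadjusted rule are in blue, and dotted lines mark a 1.5-fold change and an unadjusted p of 0.05.

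The 5 probes that rose included a vesicle traffic gene and a fibrocystin relative, beside 3 genes with provisional names. arf4b, a small GTPase of the ADP-ribosylation factor family that acts in vesicle traffic at the Golgi, read 187 and 219 on the Control arrays and 609, 634 and 796 on the ZnSO4 arrays. All 3 exposed arrays were above both Control arrays, and the gene rose (log2 FC 1.74, SE 0.16, adjusted p = 0.0403 from limma, 95% interval 1.35 to 2.12). pkhd1l1.2, a relative of the fibrocystin gene, read 180.1 and 171 in Control and 428, 474 and 558 in ZnSO4, and rose (log2 FC 1.46, SE 0.14, adjusted p = 0.0467). Both further pkhd1l1.2 probes, dim in Control with 1 of 2 arrays above background, were also above both Control arrays on every ZnSO4 array, with log2 FCs of 0.98 and 0.79 (adjusted p = 0.122 and 0.126). The remaining probes that rose have provisional names only. LOC560642 read 149 and 161 in Control against 569, 549 and 542 in ZnSO4 (log2 FC 1.83, SE 0.12, adjusted p = 0.0136), and its other probe had a log2 FC of 1.77 with an adjusted p of 0.0557. zgc:110286 read 192 and 181 against 562, 538 and 600.0 (log2 FC 1.60, SE 0.12, adjusted p = 0.0162), and its other probes had log2 FCs of 1.90 and 1.59. zgc:113442 read 111 and 117 against 194, 205 and 201 and rose by the smallest amount of the 5 (log2 FC 0.82, SE 0.07, adjusted p = 0.0202). On all 5 probes the ZnO NP arrays were above both Control arrays too, for arf4b at 692, 685 and 899.6 and for pkhd1l1.2 at 342, 353 and 439.

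The 4 probes that fell include an immediate early gene and a photoreceptor gene. egr4, a zinc finger transcription factor that neurons switch on within minutes of activity, read 3236 and 5164 in Control and 965, 944 and 891 in ZnSO4, and fell (log2 FC -2.13, SE 0.18, adjusted p = 0.0202, 95% interval -2.54 to -1.72). guca1d, a guanylate cyclase activator that restores cyclic GMP in photoreceptors after light, was above background on both Control arrays (37.5 and 41.7) and on none of the ZnSO4 arrays (5.18, 8.85 and 7.80). Its level was at least 3.97-fold lower (adjusted p = 0.0206). For such bounds the dim side is taken at the lowest signal well above background on each array, or at its own signal if higher. They concern only the dim signal and cover neither the spread between arrays nor the choice of fit. A probe with no gene name (A_15_P116560) read 43.8 and 51.3 in Control and 5.41, 5.09 and 5.0 in ZnSO4, and was at least 4.76-fold lower, with the smallest adjusted p of all probes (0.000164). No ZnSO4 or ZnO NP array was above background on A_15_P116560, so much of the spread behind its p is that of signals near the floor. Both guca1d and A_15_P116560 passed the filter only through the Control arrays. With only probes above background on all 5 arrays, both are left out and 2 probes were called lower. wu:fj62d01, named only from a cDNA clone, read 6703 and 9377 in Control against 2603, 2305 and 2513 in ZnSO4 (log2 FC -1.68, SE 0.14, adjusted p = 0.0202). All 9 calls kept their direction under every alternative that gave a value. Since the groups did not overlap on these probes, leaving out a Control or ZnSO4 array could not reverse them. Only A_15_P116560 kept its call in the fit blocked on slide side. In that fit arf4b had a log2 FC of 1.35 (adjusted p = 0.303) and egr4 of -2.10 (adjusted p = 0.248). Most calls were lost in many of the alternatives. Of 22 alternatives, LOC560642 and zgc:110286 kept their calls in 14, and egr4 and wu:fj62d01 in 11. The calls of arf4b and zgc:113442 were kept in 10 and that of pkhd1l1.2 in 9. Of 21 alternatives with a value, guca1d kept its call in 10 and A_15_P116560 in 20.

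**Figure D2:**
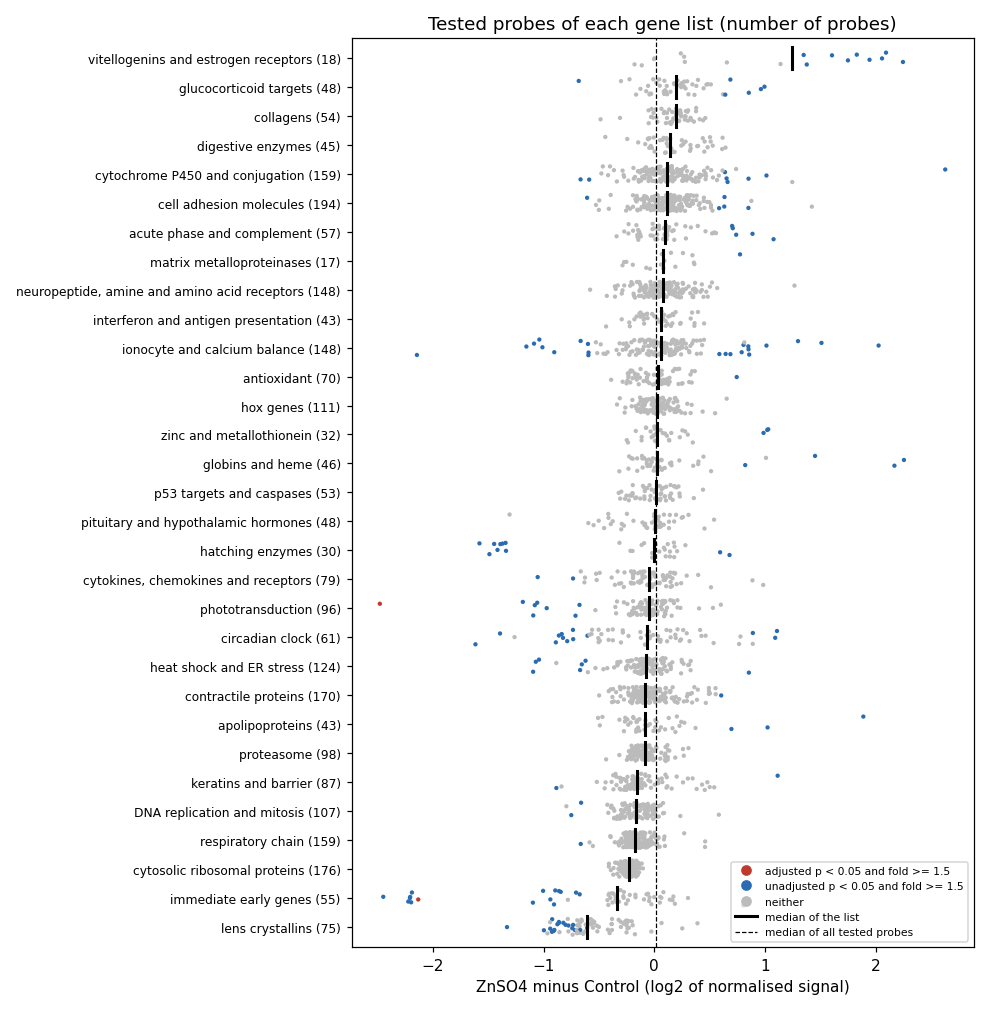
Each point is a tested probe of the gene list named on the y axis (number of probes in parentheses), with its log2 FC of ZnSO4 against Control on the x axis. Red points were called, blue points met the unadjusted rule, black bars are list medians and the dashed line is the median of all tested probes (0.02). The lens crystallins and immediate early genes have the lowest medians (-0.61 and -0.34) and the 18 vitellogenin and estrogen receptor probes that passed the filter the highest (1.25, and 0.47 over those above background on all 5 arrays).

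Among the genes that handle zinc, mt2, the metallothionein that zinc induces in fish, had higher signals in ZnSO4 than in Control on all of its probes, without passing the adjusted test. The first mt2 probe (A_15_P105247) read 20098 and 16093 on the Control arrays and 36804, 34804 and 37946 on the ZnSO4 arrays. The groups did not overlap and the level was 2.03-fold higher. The log2 FC was 1.02 (SE 0.22, 95% interval 0.51 to 1.53, adjusted p = 0.158 from limma). The other mt2 probes had log2 FCs of 0.99 and 1.03 (adjusted p = 0.193 and 0.158). On the ZnO NP arrays the first probe read 25555, 32948 and 45009.5, with the highest value on the ZnO NP array that shared the side of the ZnSO4 arrays, and in the fit blocked on slide side the ZnSO4 log2 FC was 0.39. The part of the side in the mt2 difference was not tested further. mtbl, the other metallothionein gene measured, read 20829.6 and 15886 in Control and 15539.6, 14969 and 15797 in ZnSO4 (log2 FC -0.24, adjusted p = 0.306), so that every ZnSO4 array was below both Control arrays. mtf1, the zinc sensor itself, read 662 and 774 in Control and 854, 943 and 814 in ZnSO4, with log2 FCs of 0.23, 0.28 and 0.30 over its 3 probes (smallest adjusted p = 0.221). Of the 14 zinc transporter genes on the array in this list, slc30a2 was not above background on every array of either group and none of the others reached the unadjusted rule. The exporters ranged from -0.03 for slc30a5 to 0.35 for slc30a1b, and the importers from -0.17 for slc39a6 to 0.15 for the highest slc39a3 probe. Over the list, 3 of 32 probes of 16 genes, all of mt2, were higher at the unadjusted rule and 0 were lower (9.38% and 0%, beside 1.37% and 1.00% of all probes), and blocking on slide side gave 1 and 0. The list had a median log2 FC of 0.02 beside 0.02 for all probes.

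Among oxidative and protein stress genes, 2 genes of the heat shock list were lower at the unadjusted rule, and 1 gene each of the antioxidant and heat shock lists was higher. Of 70 probes of 34 genes of the antioxidant list, 1 was higher and 0 lower at the unadjusted rule (1.43% and 0%, beside 1.37% and 1.00% of all probes). These shares are near those of all probes. The one higher was hmox1b, a heme oxygenase that degrades heme and is a common marker of oxidative stress, at 1497 and 2461 in Control and 3134, 2549.8 and 4167 in ZnSO4 (log2 FC 0.75, adjusted p = 0.214). The copper and zinc containing superoxide dismutase sod1 read 11558 and 11595 in Control and 10522, 9857 and 10635 in ZnSO4 (log2 FC -0.16, adjusted p = 0.295). Of 124 probes of 53 genes of the heat shock and endoplasmic reticulum stress list, 1 was higher and 6 were lower (0.806% and 4.84%, beside 1.37% and 1.00% of all probes). The counts turned with the Control array left out, to 6 and 0 without replicate 1 and 1 and 12 without replicate 2. The lower ones were all of serpinh1b, a chaperone of collagen folding, and of hsp90aa1.1, the Hsp90 chaperone of developing muscle. serpinh1b read 1648 and 775 in Control against 558, 542 and 516 in ZnSO4 (log2 FC -1.07, SE 0.27, adjusted p = 0.167), and its level on Control replicate 2 was much closer to the exposed arrays than on replicate 1 (log2 FC -0.53 without replicate 1 and -1.61 without replicate 2). hsp90aa1.1 read 664 and 488 against 344, 372 and 369.8 (log2 FC -0.65, adjusted p = 0.16). hspb6, a small heat shock protein gene of muscle and heart, was the one higher, at 129 and 105 and 182, 232 and 223 (log2 FC 0.85, adjusted p = 0.159). Among 53 probes of 28 genes of the p53 target and caspase list, none was higher or lower at the unadjusted rule in limma (0% and 0%, beside 1.37% and 1.00% of all probes). The log2 FCs were -0.32 to 0.44. Over so few probes this is close to the share of all probes.

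Some immediate early genes, which cells transcribe within minutes of a stimulus, were lower in ZnSO4, while most members of the list did not reach the unadjusted rule. Of 55 probes of 33 genes tested, 16 probes of 8 genes (29.1%, beside 1.00% of all probes) were lower at the unadjusted rule and 1 was higher. The list had 4 with every ZnSO4 array above both Control arrays and 33 with every one below, beside 19.9% and 19.4% of all probes, and its median log2 FC was -0.34. npas4a, a neuronal transcription factor induced by calcium entry, read 1743 and 4957 in Control and 512, 531 and 575 in ZnSO4. Both Control arrays were above every ZnSO4 array, but they also differed from each other (log2 FC -2.45, SE 0.37, adjusted p = 0.104). fosab, a subunit of the AP-1 transcription factor, read 3328 and 8013 in Control against 1166, 1091 and 1105 in ZnSO4 on the probe A_15_P628341 (log2 FC -2.21, SE 0.31, adjusted p = 0.0975), and its 5 probes, of which the dimmest was above background on 1 of 3 ZnSO4 arrays, had log2 FCs of -2.22 to -2.19. fosb, a further AP-1 subunit outside the list because its name came from the study's own table, read 189 and 622 and 64.2, 61.1 and 50.8 (log2 FC -2.55, adjusted p = 0.112). ier2a and btg2, early response genes that restrain or accompany cell growth, were lower by 2.14-fold and 1.87-fold (adjusted p = 0.0975 and 0.122). junbb, a further AP-1 subunit, and the matricellular gene ccn1 had log2 FCs of -0.84 and -0.71. jund, also of AP-1, was above background on both Control arrays (26.9 and 35.1) and on no ZnSO4 array (20.9, 14.9 and 13.2), 1.92-fold lower. nr4a3, an orphan nuclear receptor, was the one higher, at 23 and 34.8 in Control and 37.7, 67.6 and 47.4 in ZnSO4 (log2 FC 0.80, adjusted p = 0.227). Control replicate 2 had the higher level of each of the lower genes named here. Without Control replicate 1 and without Control replicate 2, the log2 FCs were -3.20 and -1.69 for npas4a, -2.84 and -1.57 for fosab, and -1.39 and -0.80 for ier2a. The list median was -0.54 without Control replicate 1 and -0.18 without Control replicate 2, with 22 and 10 probes lower at the unadjusted rule.

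**Figure D3:**
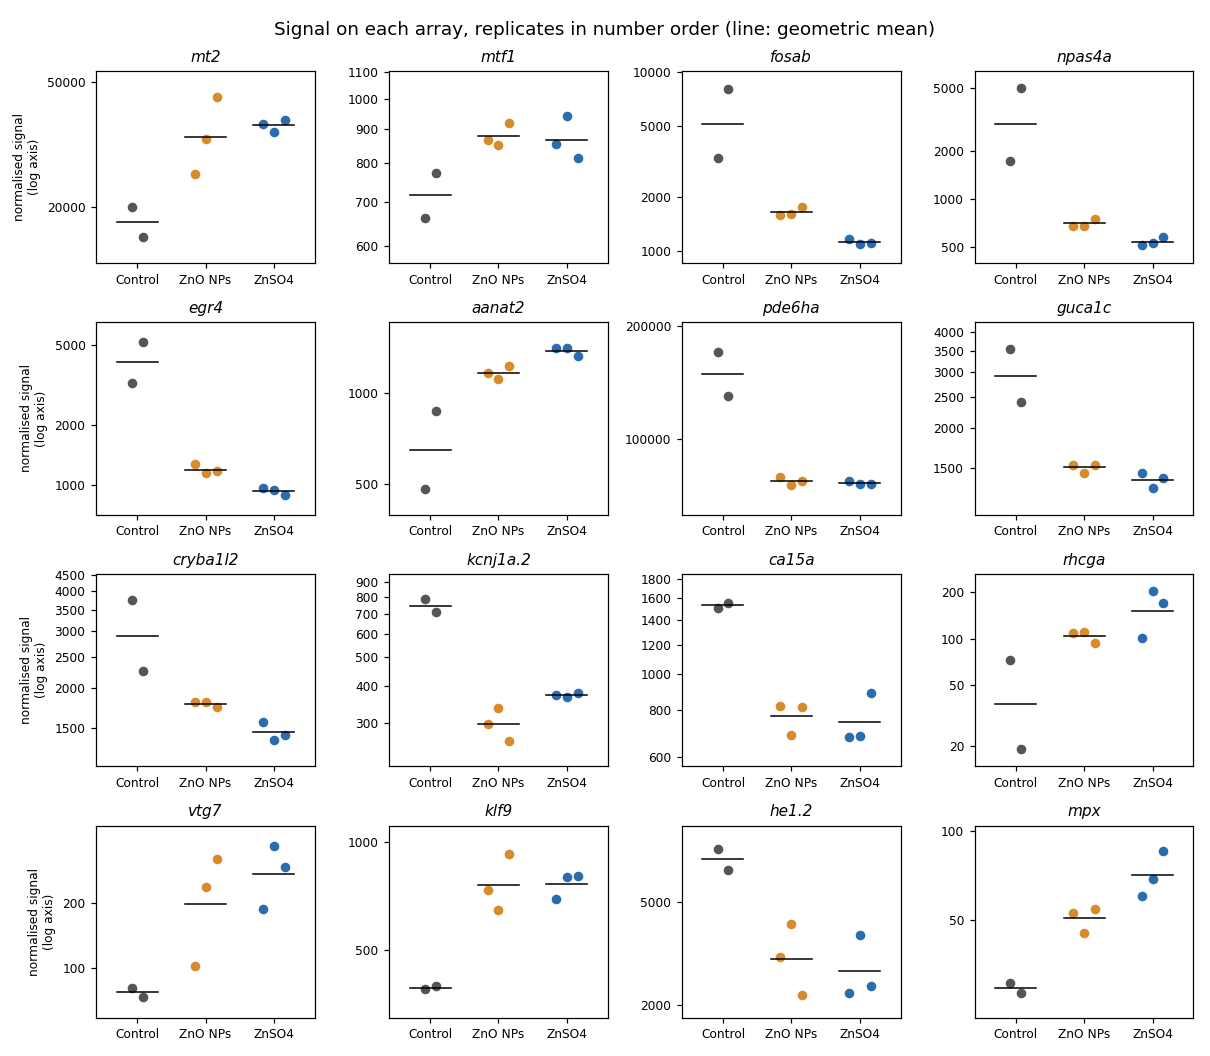
The normalized signal of 16 genes, with the probe of smallest p, is shown on a log axis for each Control, ZnO NP and ZnSO4 array, in order of replicate number, with the geometric mean as a line. On each of the 16 the ZnSO4 arrays lie wholly above or below both Control arrays, for example mt2 above and fosab below. Most of the 16 were named by a rule that required this, and 19.9% and 19.4% of all tested probes lay so above and below. The Control arrays of fosab, npas4a and rhcga lie far apart.

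Genes of the circadian clock differed in both directions at the unadjusted rule. Of 61 probes of 35 genes, 10 probes of 6 genes were lower at the unadjusted rule and 3 probes of 2 genes were higher (16.4% and 4.92%, beside 1.00% and 1.37% of all probes), with a median log2 FC of -0.07. The higher and lower probes numbered 1 and 3 without Control replicate 1 and 9 and 19 without Control replicate 2. The lower genes were repressors and output factors. per3, a period gene whose protein represses the clock, was above background in Control (67.4 and 35.3) and not in ZnSO4 (13.9, 17.8 and 16.4) on the probe A_15_P103364. It was 3.06-fold lower there (adjusted p = 0.17), with a log2 FC of -0.47 in the fit blocked on slide side. The other per3 probe had a log2 FC of -0.50. tefa, a PAR-domain factor that carries clock time to its targets, read 11592 and 5435 in Control against 4429, 4059 and 4381 in ZnSO4 (log2 FC -0.89, SE 0.27, adjusted p = 0.19). nr1d2b, a Rev-erb repressor, read 252 and 107 and 85.3, 93.1 and 92.8 (log2 FC -0.86), and per1b read 3075 and 641 and 686, 486 and 459 (log2 FC -1.39), with overlap between the groups for per1b. For tefa, nr1d2b and per1b, Control replicate 1 was high and Control replicate 2 lay close to the exposed arrays. The bHLH repressor bhlhe40 and the leucine zipper factor nfil3-6 had log2 FCs of -0.73 and -0.82 (adjusted p = 0.133 and 0.112). The higher genes were aanat2, the pineal enzyme of melatonin synthesis, and the cryptochrome cry3b. aanat2 read 482 and 876 in Control and 1418, 1409.7 and 1332 in ZnSO4 (log2 FC 1.09, SE 0.22, adjusted p = 0.141). cry3b read 109 and 283 and 317, 346 and 315 (log2 FC 0.89, adjusted p = 0.236). Without Control replicate 1 the log2 FCs were -0.34 for tefa, 0.66 for aanat2 and 0.20 for cry3b, and without Control replicate 2 they were -1.44, 1.52 and 1.58. The hour at which each dish was sampled is not given in the sources used here.

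In the eye, some genes of phototransduction were lower in ZnSO4. Phototransduction turns light into a fall of cyclic GMP through opsins, transducin and phosphodiesterase, and guanylate cyclase activators and opsin kinases end the response. Of 96 probes of 45 genes tested, 8 probes of 5 genes (8.33%, beside 1.00% of all probes) were lower and none was higher at the unadjusted rule, while the list median was -0.05. pde6ha, the inhibitory subunit of the cone phosphodiesterase, read 171098 and 129796 in Control and 76904, 75588 and 75520.5 in ZnSO4 (log2 FC -0.97, SE 0.11, adjusted p = 0.0587), and its second probe had a log2 FC of -1.19 (adjusted p = 0.0975). guca1c, like guca1d an activator of guanylate cyclase, read 3555 and 2405 against 1438, 1291 and 1388 (log2 FC -1.09, SE 0.15, adjusted p = 0.0975). guca1g of the same family read 315 and 255 against 146, 147 and 118 (log2 FC -1.06, adjusted p = 0.0979). grk7a, the cone opsin kinase, read 2006 and 1579 against 1126, 1157 and 1063 (log2 FC -0.68, adjusted p = 0.11). The guanylate cyclase activators did not all go one way. guca1aa, which was outside the list and is given because it is of the same family, read 16.8 and 24.5 in Control, with 1 of 2 arrays above background, and 63.7, 62.9 and 59.1 in ZnSO4 (adjusted p = 0.0922). guca1ab.1 read 4.44 and 25.4 in Control, where 1 of 2 arrays was above background, and 38.3, 34.6 and 34.4 in ZnSO4, while its other probe had a log2 FC of -0.07. The photoreceptor markers rho, gnat1, gnat2 and pde6c, summed, read 157546 and 158199 on the Control arrays and 142948 to 156105 on the ZnSO4 arrays.

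Lens crystallins, the structural proteins of the lens fibers, were the list with the lowest median, but Control replicate 1 carried most of this difference. Of 75 probes of 47 genes, 18 probes of 10 genes (24%, beside 1.00% of all probes) were lower at the unadjusted rule, none was higher, and 3 probes had a positive log2 FC. The number of lower probes was 3 without Control replicate 1, 55 without Control replicate 2, and 6, with 1 higher, in the fit blocked on slide side. cryba1l2, a beta crystallin, read 3745 and 2252 in Control against 1566, 1377 and 1429.7 in ZnSO4 (log2 FC -1.0, SE 0.19, adjusted p = 0.134). crygmx, a gamma crystallin, read 10662 and 6916 against 4748, 4453 and 4589 (log2 FC -0.90, adjusted p = 0.13), and crybb1l3 and crygmxl1 had log2 FCs of -0.92 and -0.94. cryaa, the alpha crystallin that serves as a lens chaperone, read 5050.0 and 2580.5 and 2155, 1868 and 1951, with log2 FCs of -0.86 to -0.74 over 4 probes. crygm1 read 289 and 118 against 100.2, 85.6 and 108. In each of these genes Control replicate 1 was well above Control replicate 2, which lay nearer to the ZnSO4 arrays. The list median was -0.61 against both Control arrays, -0.07 without Control replicate 1 and -1.19 without Control replicate 2. In the same fits the log2 FC of cryba1l2 was -0.63 and -1.36, and that of crygm1 was -0.28 and -1.57. The lens markers cryaa and cryba1b, summed, read 66228 and 135066 on the Control arrays and 59086 to 63564 on the ZnSO4 arrays.

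**Figure D4:**
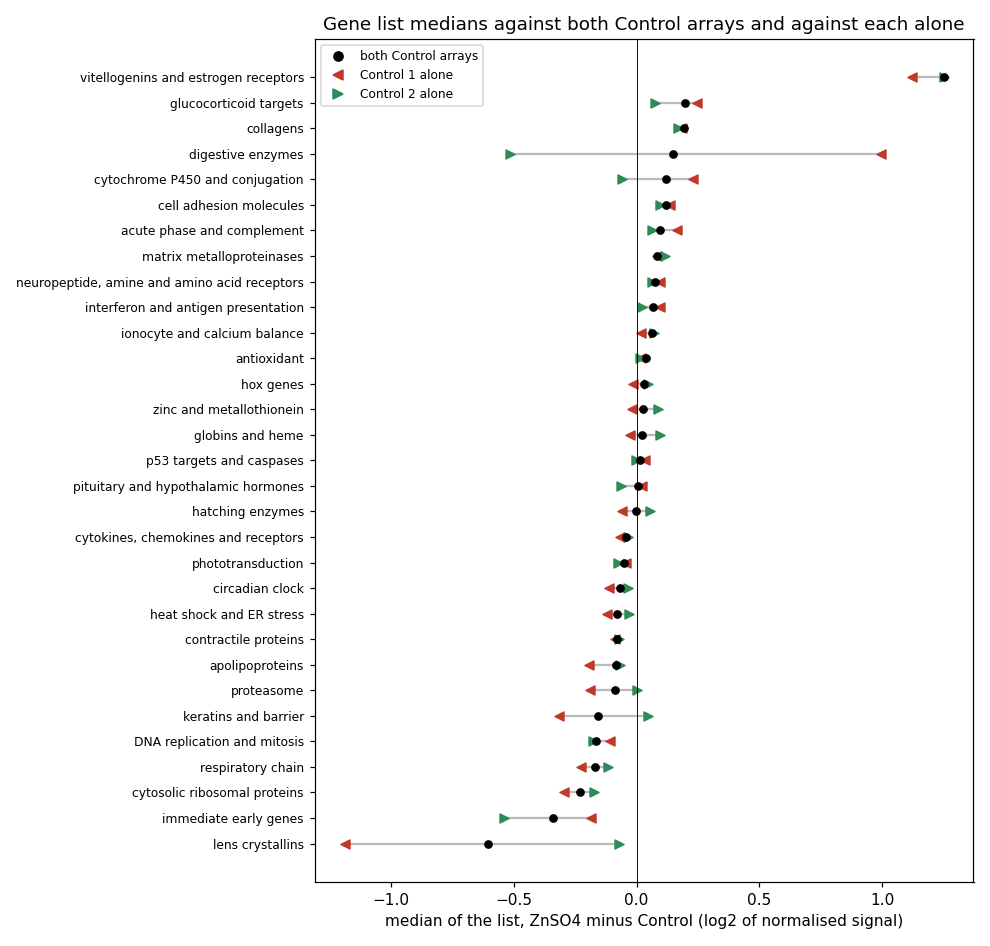
For each gene list, the median log2 FC of ZnSO4 is shown against both Control arrays (black), against Control replicate 1 alone (red) and against Control replicate 2 alone (green). Lens crystallins run from -1.19 to -0.07 and digestive enzymes from 1.00 to -0.52, while vitellogenins, collagens and ribosomal proteins stay on the same side of zero.

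Genes of ion transport differed in both directions at the unadjusted rule. Ionocytes of the larval skin import sodium, chloride and calcium and export acid and ammonia, each type with its own channels. Of 148 probes of 77 genes of the ionocyte and calcium list, 12 probes of 7 genes (8.11%) were higher and 10 probes of 7 genes (6.76%) were lower at the unadjusted rule, beside 1.37% and 1.00% of all probes, with a median of 0.06. Blocking on slide side left 6 and 5. The inward rectifier potassium channels of the kcnj1a cluster were lower. kcnj1a.2 read 790.0 and 711 in Control and 373, 365 and 378 in ZnSO4 on the probe A_15_P641866 and 2433 and 2351 against 1079, 1089 and 1054 on the probe A_15_P149666. The groups lay far apart and neither was spread widely (log2 FC -1.01 and -1.16, SE 0.11 and 0.14, adjusted p = 0.0587 and 0.063 from limma). kcnj1a.1 and kcnj1a.5, neighbors in sequence whose probes may share signal, had log2 FCs of -0.60 and -0.66 (adjusted p = 0.0843 and 0.19). ca15a, a zinc-containing carbonic anhydrase on the surface of acid-secreting ionocytes, read 1509.8 and 1550.3 in Control and 679, 684 and 892 in ZnSO4 (log2 FC -1.04, SE 0.14, adjusted p = 0.0946), with the Control arrays close together (log2 FC -1.06 and -1.02 against each alone). cldn10b, a claudin of paracellular ion paths, and atp1b1b, a beta subunit of the sodium pump, had log2 FCs of -0.90 and -0.59.

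On the higher side were rhcga, an ammonia channel of the same acid-secreting cells, and the sodium chloride cotransporters slc12a3 and slc12a10.2. rhcga read 72.6 and 19.1 in Control and 100.5, 204 and 171 in ZnSO4 on the probe A_15_P223536 (log2 FC 2.03, SE 0.53, adjusted p = 0.168), and 483 and 152 against 762, 776 and 775 on another, where only the Control arrays were spread. Control replicate 2 was low, and the log2 FC was 1.06 without it and 2.99 without Control replicate 1. slc12a3 read 406 and 219 and 496, 522 and 529 (log2 FC 0.79), and slc12a10.2 read 46.2 and 33.2 and 60.7, 66.9 and 61.8 (log2 FC 0.69, adjusted p = 0.159). Genes of calcium balance were among those that differed. stc1l, a stanniocalcin, the hormone family that lowers calcium uptake in fish, read 124 and 833 in Control and 86.3, 86.5 and 51.7 in ZnSO4, with Control replicate 2 far above replicate 1 (log2 FC -2.14, SE 0.69, adjusted p = 0.202). The log2 FC of stc1l was -0.77 without Control replicate 2 and -3.52 without Control replicate 1. pth1b, a parathyroid hormone gene, read 60.0 and 58.3 and 130.4, 109 and 78.2 (log2 FC 0.81). vdra, the vitamin D receptor, read 46.8 and 65.5 and 91.2, 100.5 and 109 (log2 FC 0.85, SE 0.16, adjusted p = 0.126), and its target cyp24a1, the enzyme that inactivates vitamin D, read 101 and 192 and 263, 247 and 342 (log2 FC 1.01, adjusted p = 0.22, and 0.14 in the fit blocked on slide side). atp2b1a, a calcium pump of the plasma membrane, read 61.1 and 69.5 and 91.8, 117 and 99 (log2 FC 0.65). The ionocyte markers atp1a1a.4, foxi3a and foxi3b, summed, read 5951 and 8003 on the Control arrays and 6474 to 7113 on the ZnSO4 arrays.

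Among targets of the glucocorticoid receptor, through which cortisol acts, 5 of 48 probes of 20 genes were higher and 1 was lower at the unadjusted rule (10.4% and 2.08%, beside 1.37% and 1.00% of all probes). The list median was 0.195 as reported and 0.007 in the fit blocked on slide side, beside 0.03 for all probes there, with 0 and 2 probes higher and lower. klf9, a Krueppel-like factor, read 387 and 395 in Control against 691, 800.0 and 802 in ZnSO4 (log2 FC 0.96, SE 0.15, adjusted p = 0.107). fkbp5, a co-chaperone that dampens the receptor, read 939.7 and 971 against 1744, 1983 and 1999 (log2 FC 1.00, SE 0.18, adjusted p = 0.122). For both, the Control arrays nearly coincided and all exposed arrays, those of ZnO NPs included (733, 645 and 925 for klf9), were higher. In the fit blocked on slide side the log2 FCs were 0.54 and 0.49. tat, a liver aminotransferase, read 326 and 379.8 against 547, 459.9 and 724 on 1 of 5 probes tested (log2 FC 0.69), while that probe had -0.15 in the fit blocked on slide side. ddit4, an inhibitor of growth signaling that the receptor also induces, was the one lower, at 289.8 and 282 against 147, 217 and 178 (log2 FC -0.68, adjusted p = 0.16).

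Probes of the vitellogenins vtg6 and vtg7 read higher in ZnSO4 from a low level. Vitellogenins are the yolk precursors that adult females make in the liver under estrogen. Of 57 probes in the list of vitellogenins and estrogen receptors, 18 passed the background filter, some of them only through the ZnSO4 arrays, so that counts and medians over these are a description. Of the 18, 9 probes, all of vtg6 and vtg7, met the unadjusted rule as higher and none as lower (50% and 0%, beside 1.37% and 1.00% of all probes), and the median was 1.25. It was 0.47 over the 12 probes above background on all 5 arrays, 0.36 over all 57 probes and 0.21 in the fit blocked on slide side, where no probe met the unadjusted rule. vtg7 read 81.1 and 73.2 in Control and 188, 369 and 296 in ZnSO4 (log2 FC 1.83, SE 0.47, adjusted p = 0.168), with log2 FCs of 1.61 to 2.09 over 4 probes, the lowest on a probe above background on 1 of 2 Control arrays. vtg6 was not above background on either Control array (15.8 and 7.83) and was on every ZnSO4 array (36.1, 68.3 and 59.4) on the probe A_15_P746141. It was 4.75-fold higher there (adjusted p = 0.16), with a log2 FC of 1.03 in the fit blocked on slide side. vtg1, named from the study's own table, read 21.9 and 20.4 and 55.5, 87.1 and 37.7 on 1 probe (log2 FC 1.43, adjusted p = 0.158). Its other probe was above background on no Control array (22.9 and 13) and read 40.0, 83.9 and 52.6 in ZnSO4 (adjusted p = 0.311). On the ZnO NP arrays these probes went apart, with 14.5, 14.6 and 18.8 on the first and 10.9, 78.7 and 70.4 on the other. Vitellogenin genes are close copies, so their probes may share signal. On the ZnO NP arrays vtg7 read 102, 239 and 321, with replicate 1 near Control, and in the fit blocked on slide side its ZnSO4 log2 FC was 0.79. The processing also moved the median. It was 1.13 with quantile normalization alone and 0.35 with normexp background correction, its offset of 50 and quantile normalization. The part of the offset in this fall was not tested.

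Liver and gut enzymes of lipid, steroid and foreign compound metabolism were higher in a few members. Of 159 probes of 91 genes of the cytochrome P450 and conjugation list, 6 probes were higher and 2 lower (3.77% and 1.26%, beside 1.37% and 1.00% of all probes). Leaving out Control replicate 1 gave 6 and 6, leaving out Control replicate 2 gave 30 and 2, and blocking on slide side gave 1 and 2. cyp2k6, an oxidase of the liver, was above background on no Control array (4.45 and 12.4) and on every ZnSO4 array (30.3, 40.8 and 78.7), at least 4.09-fold higher (adjusted p = 0.178). In the fit blocked on slide side the cyp2k6 log2 FC was 1.09. Its probe passed the filter only through the ZnSO4 arrays. Over the 154 probes of the list above background on all 5 arrays, 4 were higher and 2 lower at the unadjusted rule. Beside them stood 338 and 256 of all 33041 such probes. cyp2k22, its relative, read 11.2 and 20.2 in Control, where 1 of 2 arrays was above background, and 81.7, 114 and 196 in ZnSO4 (adjusted p = 0.14). cyp17a1, an enzyme of steroid hormone synthesis, read 153 and 83.7 and 158, 179 and 199.96 (log2 FC 0.65), and the glucuronosyltransferase ugt5a4 read 79.1 and 116 and 138, 144 and 175 (log2 FC 0.66). The lower probes were both of sult1st4, a sulfotransferase, at 444 and 431 in Control and 301, 277 and 297 in ZnSO4 (log2 FC -0.59, adjusted p = 0.11). Of 43 probes of 22 genes of lipid transport, 3 were higher and 0 lower (6.98% and 0%, beside 1.37% and 1.00% of all probes). The list median was -0.08. Every ZnSO4 array was above both Control arrays on 5 probes (11.6%) and below both on 13 (30.2%), beside 19.9% and 19.4% of all probes. lipca, the hepatic lipase, read 13.5 and 50.2 in Control, where 1 of 2 arrays was above background, and 92.2, 95.1 and 102 in ZnSO4 (adjusted p = 0.16). mttp, which loads lipid onto apolipoprotein B, read 60.5 and 99.5 and 120.3, 117 and 280.0 on 1 probe (log2 FC 1.02), where ZnSO4 replicate 3 stood far above the rest. The other mttp probes had log2 FCs of 0.24 to 0.37. apoa4b.2, an apolipoprotein of the gut and liver, read 7951 and 7982 and 12526, 12216 and 14093 (log2 FC 0.70), against -0.08 on its other probe and -0.0035 on the first in the fit blocked on slide side. The digestive enzymes of the pancreas gave no probe at the unadjusted rule and none without overlap among 45 probes of 25 genes. The Control arrays lay on opposite sides of the exposed ones, with 35 of the probes higher without Control replicate 2 and 5 lower without Control replicate 1.

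Some complement genes and the neutrophil gene mpx were higher in ZnSO4 at the unadjusted rule, while few cytokine probes differed. Of 57 probes of 28 genes of acute phase and complement genes, 5 probes were higher and 0 lower (8.77% and 0%, beside 1.37% and 1.00% of all probes), with a median of 0.10. Without Control replicate 1 the counts were 1 and 2, without ZnSO4 replicate 3 1 and 0, and in the fit blocked on slide side 1 and 0 with a median of -0.10. cfbl, a complement factor B gene, read 133 and 119 in Control and 211, 223 and 265 in ZnSO4 (log2 FC 0.89, SE 0.14, adjusted p = 0.107), and the complement genes c3a.3 and c3a.2 had log2 FCs of 0.71 and 0.74 (adjusted p = 0.188 and 0.201). mpx, the myeloperoxidase that marks neutrophils, read 30.7 and 28.6 and 60.5, 68.9 and 85.5 (log2 FC 1.26, adjusted p = 0.0662), and its 3 probes had log2 FCs of 0.82, 0.95 and 1.26, each at the unadjusted rule with no overlap. It was given here because it is a fixed marker of immune cells. The 4 markers of immune cells (mpx, lyz, mpeg1.1 and coro1a), summed, read 5723 and 6986 on the Control arrays and 7598 to 9145 on the ZnSO4 arrays, without overlap, and their part in the complement values was not tested. Among 79 probes of 54 genes of cytokines, chemokines and their receptors, none was higher and 2 were lower (0% and 2.53%, beside 1.37% and 1.00% of all probes), with a median of -0.05. The number lower was 1 with normexp background correction or the methods' ANOVA, 4 with scaling by the array median and 5 with quantile normalization. So few probes are little above the share of all probes. The 2 lower probes were of ifnphi4, a type I interferon, at 175 and 108 and 80.0, 56.2 and 64.8 (log2 FC -1.05, adjusted p = 0.147), and of il17a/f1, an interleukin gene that was above background in Control (15.4 and 16.2) and not in ZnSO4 (7.66, 8.03 and 14.0) and was at least 1.41-fold lower. mmp9, a matrix metalloprotease of neutrophils and macrophages, read 897 and 669 and 1296, 1287 and 1395 (log2 FC 0.78, adjusted p = 0.266), but -0.34 in the fit blocked on slide side.

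Of the genes of the hatching list, he1.1, he1.2 and ctslb were lower in ZnSO4, while the list as a whole had a median of -0.0034. Of its 30 probes of 13 genes, 2 were higher and 8 lower at the unadjusted rule (6.67% and 26.7%, beside 1.37% and 1.00% of all probes), none was called, and 15 had a positive log2 FC. The zinc metalloproteases he1.1 and he1.2 are stored in the hatching gland, which larvae lose after they leave the egg envelope. he1.2 read 8083 and 6705 in Control and 2222, 3737 and 2375 in ZnSO4 (log2 FC -1.45, SE 0.30, adjusted p = 0.155), and he1.1, a close copy, read 3109 and 2521 and 902, 1560.2 and 963 (log2 FC -1.34, adjusted p = 0.158). ctslb, the cathepsin L of the gland, read 7746 and 3957 and 1326, 2919 and 1645 (log2 FC -1.58, SE 0.38, adjusted p = 0.161). All 3 genes were lowest on ZnSO4 replicate 1 and highest on ZnSO4 replicate 2 among the exposed arrays, and every exposed array was below both Control arrays. The 8 lower probes of the list were all of these 3 of its 13 genes. On the higher side was ctsl.1, another cathepsin L gene, at 3814 and 2812 and 4833, 4367 and 6845 (log2 FC 0.68, adjusted p = 0.193). Its other probe had a log2 FC of 0.59. The fixed hatching gland markers were he1.1 and ctsl.1, which went opposite ways. Summed, they read 5133 and 6918 on the Control arrays and 5573 to 7270 on the ZnSO4 arrays. In the fit blocked on slide side the log2 FCs were -0.75 for he1.2, -0.70 for he1.1 and -1.27 for ctslb, and no probe of the list met the unadjusted rule there.

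Skin and blood gave single genes. krt17, a keratin of the epidermis, read 35021 and 22759 in Control and 61949, 53009.6 and 69581 in ZnSO4 (log2 FC 1.11, SE 0.20, adjusted p = 0.122), but its other probe read 174352 and 110152 and 125147, 117047 and 107064 (log2 FC -0.25, adjusted p = 0.463), so the probes disagree. krt98 read 106 and 106 and 56.1, 47.0 and 71.0 (log2 FC -0.88, adjusted p = 0.122). Of 87 probes of 30 genes of keratins and barrier genes these were the only probes at the unadjusted rule, 1 in each direction, against 4 and 3 higher and lower without Control replicate 1 and 1 and 13 without Control replicate 2. Of 46 probes of 24 genes of the globin and heme list, 4 were higher and 0 lower at the unadjusted rule (8.70% and 0%, beside 1.37% and 1.00% of all probes), with a median of 0.02. Over the 41 probes of this list above background on all 5 arrays the counts were 2 and 0. ba1l, a beta globin, read 9.40 and 35.5 in Control, where 1 of 2 arrays was above background, and 104, 105 and 50.9 in ZnSO4 (adjusted p = 0.222). klf1, the transcription factor of red cell genes, read 47.8 and 30.3 and 175, 165 and 39.1, high on ZnSO4 replicates 1 and 2 and at the Control level on replicate 3 (log2 FC 1.45). ppox, an enzyme of heme synthesis, was also lowest on ZnSO4 replicate 3 among the exposed arrays on 1 of its 3 probes, at 37.5 and 41.2 and 75.5, 106 and 41.9 (log2 FC 0.82).

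Genes of basic cell machinery had small negative log2 FCs, below the fold threshold. Of 176 probes of 84 genes of cytosolic ribosomal proteins, every one had a negative log2 FC (range -0.41 to -0.10), and 170 (96.6%, beside 19.4% of all probes) had every ZnSO4 array below both Control arrays, but none reached a 1.5-fold change. The median was -0.23 as scaled here and -0.05 with quantile normalization, so its size depended on the scaling. For the nuclear genes of the respiratory chain the median was -0.17 and -0.09 with quantile normalization. Of their 159 probes, 115 (72.3%, beside 19.4% of all probes) were without overlap and lower. cox5b2, a subunit of cytochrome c oxidase, was their one probe at the unadjusted rule, at 2340.4 and 1989.5 and 1325, 1454 and 1312 (log2 FC -0.66, SE 0.10, adjusted p = 0.104). DNA replication and mitosis genes had a median of -0.17 (-0.17 with quantile normalization and -0.02 in the fit blocked on slide side), and gins4, a subunit of the replicative helicase, read 309.8 and 245 and 226, 148 and 159 (log2 FC -0.66, adjusted p = 0.197). Collagens lay on the other side, with a median of 0.19 (0.21 with quantile normalization). Of their 54 probes, 33 (61.1%, beside 19.9% of all probes) were without overlap and higher, none of them at the unadjusted rule. Cell adhesion genes had a median of 0.12, and nlgn1, a synaptic adhesion protein, read 36.1 and 50.7 and 65.6, 70.7 and 98.9 (log2 FC 0.85, adjusted p = 0.159). itgb4, the integrin of hemidesmosomes, and cdh15, a cadherin of muscle, had log2 FCs of 0.63 and 0.63, and cd74b, the invariant chain of antigen presentation, had -0.61. atp2a2a, a calcium pump of the sarcoplasmic reticulum, was the one contractile list probe at the unadjusted rule (log2 FC 0.61, and 0.08 in the fit blocked on slide side). The lists of hox genes, pituitary and hypothalamic hormones and proteasome subunits gave no probe at the unadjusted rule, among 111, 48 and 98 probes. Nor did those of interferon and antigen presentation genes and of transmitter receptors, among 43 and 148 probes. cd74b was counted in the cell adhesion list and not in that of antigen presentation. Both beta actin genes, often used as a reference, had log2 FCs of -0.23 to 0.04 over their probes.

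Several of the largest differences were in dim probes or in genes of no described list. ocstamp, which cells that fuse into osteoclasts need, was above background on no Control array (5.24 and 3.11) and on every ZnSO4 array (37.8, 42.9 and 36.9), at least 4.94-fold higher (adjusted p = 0.0557). The probe passed the filter only through the ZnSO4 arrays. Its log2 FC was 3.65 without Control replicate 1 and 2.90 without Control replicate 2. In the fit blocked on slide side it was 2.8 (adjusted p = 0.452 from limma). zgc:111983 read 4.48 and 47.4 in Control, with 1 of 2 arrays above background, and 174, 73.4 and 291 in ZnSO4 (adjusted p = 0.19). si:dkey-7c18.24 read 4935 and 1648 and 10041, 7482 and 15969.9 (log2 FC 1.90), and its 5 probes, of which 2 were above background on only 1 of 2 Control arrays, ranged from 1.28 to 1.90. On the lower side, dhrs7cb, a short-chain dehydrogenase gene, read 27.1 and 18.6 in Control and was above background on no ZnSO4 array (6.91, 4.76 and 4.68), at least 2.25-fold lower, while its bright probe read 3095 and 2177 and 2366, 2415 and 2259 (log2 FC -0.15). wu:fj12g10 and LOC100151344 were likewise above background in Control only, at least 2.79-fold and 2.34-fold lower. In the fit blocked on slide side their log2 FCs were -1.26 and -0.70. LOC100007591 read 58.8 and 47.9 in Control and 5.91, 27.6 and 10.3 in ZnSO4, where 1 of 3 arrays was above background.

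ZnSO4 and ZnO NP larvae were also compared directly, 3 arrays against 3. Of the 34356 probes, 0 (0%) were called at an adjusted p under 0.05 and a 1.5-fold change in limma, with a smallest adjusted p of 0.816. At the unadjusted rule 97 were higher and 75 lower in ZnSO4 than in ZnO NPs. In the fit blocked on slide side 13 probes were called, with ZnO NP replicate 3 the only ZnO NP array on the side of the ZnSO4 arrays. Both treatments were set against the same Control arrays, so their log2 FCs are given side by side without a measure of likeness. They were 1.02 for ZnSO4 and 0.90 for ZnO NPs in mt2, -2.13 and -1.78 in egr4, -1.01 and -1.34 in kcnj1a.2 (A_15_P641866), 1.00 and 1.03 in fkbp5, and -0.97 and -0.95 in pde6ha. The values lay further apart for mpx (1.26 and 0.78, unadjusted p of the direct difference = 0.00779 from limma) and cfbl (0.89 and 0.34, unadjusted p = 0.00245 from limma). Both direct differences were below 1.5-fold, so neither met the unadjusted rule, and neither passed after adjustment over all probes. They were not the largest among the genes named here. The dim dhrs7cb probe, above background on no exposed array, had log2 FCs of -2.06 for ZnSO4 and -0.69 for ZnO NPs. Its direct difference met the unadjusted rule (unadjusted p = 0.0013 from limma, adjusted p = 0.816).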

How the data were processed

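RNA of whole larvae was hybridized to 1-color Agilent zebrafish arrays. The deposited scanner files of the authors hold intensity values, background subtracted and detrended by Agilent Feature Extraction 10.10.1.1 per the file headers and not normalized between arrays. The deposited value table holds log2 values that the authors shifted by each array's 75th percentile and centered on each probe's median, and it served only as an alternative (the median difference from the values used here was 0.00271 over 43600 probes).

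Control and outlier spots were left out, arrays were aligned on the 75th percentile of the log2 processed signal, and spots of a probe were averaged. Probes clearly above background on all Control or all ZnSO4 arrays were fitted in limma 3.58.1 (R 4.3.3) with the 3 groups in 1 model (5 residual degrees of freedom), and p-values were adjusted over all probes by the Benjamini-Hochberg method. The code of the fit was run on simulated data with independent errors of equal spread in all groups. Such data cannot show how the fit handles unlike Control arrays or slide side. Calls needed a fold change of 1.5 and an adjusted p under 0.05. With 2 Control arrays, the number of arrays limits the precision. Of the zebrafish probes, 25854 were named through RefSeq symbols, 416 through the study's supplementary table only, and 17333 had no name. A few genes are not reported here.

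Genes were named by rule: all called probes, the 12 genes with the largest differences in each direction and up to 4 members of each list (both at the unadjusted rule, with no overlap between groups), and mt2 and mtf1. Further genes were given beside these after their values were seen. Members and gene lists were chosen with earlier results of these data known, and the patterns of the ribosomal and apolipoprotein lists were corrected afterwards to leave out kinases and other unrelated genes that share their symbols' first letters. Alternatives were other scalings, background corrections, filters, fold thresholds and fits, the methods' ANOVA, blocks for replicate number and slide side, and leaving out each array.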

Additional observations from a re-analysis of the deposited data

How the results depend on the processing

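The number of called probes was small and depended on the processing. Higher and lower called probes in ZnSO4 numbered 5 and 4 as reported, 4 and 7 with quantile normalization, 8 and 9 with scaling by the array median, 6 and 13 with normexp background correction, 0 and 1 with no filter on dim probes, 5 and 2 among probes above background on all 5 arrays, 2 and 1 with only the 5 arrays, 31 and 37 with a trended robust variance prior, and 1 and 1 with the methods' ANOVA after Benjamini-Hochberg adjustment. At the unadjusted rule they were 301 and 461 with quantile normalization, 356 and 467 with scaling by the array median, and 128 and 162 with normexp background correction. They were 3227 and 3125 with no fold threshold, 115 and 87 with a fold change of at least 2, and 211 and 158 by the methods' ANOVA. In the fit blocked on slide side there were 0 and 2 called probes, 688 and 522 at the unadjusted rule, and 13 between ZnSO4 and ZnO NPs. The side term of this fit rests on ZnO NP replicate 3 against replicates 1 and 2. In that fit the log2 difference reversed for apoa4b.2 (-0.0035), tat (-0.15) and mmp9 (-0.34). The cause was not tested. No other reversal occurred among the 76 probes named by rule, and probes of other genes were not followed through the alternatives. On a probe whose groups do not overlap, as the naming rule mostly required, leaving out a Control or ZnSO4 array cannot reverse the direction. Several other alternatives changed only the test or the threshold and left the log2 FC as it was. Leaving out each array in turn gave 0 to 590 higher and 1 to 341 lower called probes, 420 to 1645 and 329 to 657 at the unadjusted rule, and 0 in every case between ZnSO4 and ZnO NPs. The most were called without Control replicate 2 (590 and 341) and without Control replicate 1 (26 and 45). Without ZnSO4 replicates 1, 2 and 3, 0 higher and 2, 1 and 1 lower probes were called, and without ZnO NPs replicates 1, 2 and 3 there were 4, 2 and 1 higher and 1, 2 and 1 lower.

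The labels do not say whether the replicate numbers pair the samples. Same-numbered Control and ZnSO4 arrays had deviations from their group means that correlated at 0.0129 and 0.0562. The deviations of the 2 Control arrays mirror each other, so both values rest on 1 difference and cannot settle whether samples were paired. With the replicate block 0 probes were called higher and 1 lower (516 and 340 at the unadjusted rule). Dim probes, near the lowest signal well above background, carry only bounds or rough folds, which do not cover the spread between arrays.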
